A study of Mus musculus with 16 samples.

Results

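Interferon-stimulated genes are the genes that cells switch on when interferon binds its receptors. Here 47 of them were followed in mouse liver tumors and in the liver around them, chosen by name from the 54838 genes of a count table. All 47 were found by Ensembl ID and all 47 passed the filter on low counts. They were split by what textbook knowledge gives as their main inducer, into 38 type I-like genes and 9 interferon gamma-like genes (Irf1, Ifi47, Irgm1, Irgm2, Igtp, Gbp2, Gbp3, Gbp6 and Gbp7). Many of the 47 respond to both kinds of interferon, so the split names a leading inducer and not an exclusive one.

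RNA was sequenced from 8 mice, each of the genotype HrasG12V, an active form of the Ras oncogene, with 1 tumor library and 1 peri-tumor library per mouse. TCM tumor and TCM peri-tumor tissue came from 4 mice that received a decoction of traditional Chinese medicine (TCM), and control tumor and control peri-tumor tissue from 4 mice labelled control. The labels add 3 months to every sample without saying whether this is age or time on treatment, and they mention both Ras-transgenic mice and tumors induced with DEN, a liver carcinogen, without saying whether these mice also received it. The labels give neither the promoter that drives the transgene nor the decoction's composition and dose. The series text asks how the decoction acts on liver tumors.

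Type I interferons (the alpha and beta families) signal through Ifnar1 and Ifnar2, the kinases Jak1 and Tyk2, and a complex that contains Stat2 and Irf9 and binds a promoter element called ISRE. Interferon gamma, made mainly by T and NK cells, signals through Ifngr1 and Ifngr2 to an element called GAS, and through Irf1. The products sense foreign nucleic acid, block viral RNA and protein, or, for the GTPases induced by interferon gamma, attack the vacuoles of intracellular microbes, and in liver both hepatocytes and Kupffer cells express them.

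The promoter sequences of 8 members are shown. Among them are 3 Oas genes called between treatments in peri-tumor tissue, and Isg15 and Bst2, which differed between tissues of control mice in opposite directions. To set the other class beside them, 3 interferon gamma-like genes are shown, none of which was called below by edgeR with all 16 libraries. Each sequence is the stretch of 150 bases before the transcription start, 5′ to 3′ on the gene's strand, from RefSeq (GRCm38.p6). Capitals mark matches to the ISRE letters (GAAA, any 2 bases, GAAA) or the GAS letters TTCNNNGAA on either strand, and overlapping matches run together.
Oas3 (chr5:120777660-120777809, minus strand): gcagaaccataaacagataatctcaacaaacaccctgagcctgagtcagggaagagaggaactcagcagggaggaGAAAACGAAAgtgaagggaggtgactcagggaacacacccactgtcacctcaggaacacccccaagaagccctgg
Oas1a (chr5:120907526-120907675, minus strand): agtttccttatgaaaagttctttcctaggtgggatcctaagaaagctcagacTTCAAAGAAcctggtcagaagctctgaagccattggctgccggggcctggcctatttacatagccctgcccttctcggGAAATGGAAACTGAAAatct
Oas1g (chr5:120887614-120887763, minus strand): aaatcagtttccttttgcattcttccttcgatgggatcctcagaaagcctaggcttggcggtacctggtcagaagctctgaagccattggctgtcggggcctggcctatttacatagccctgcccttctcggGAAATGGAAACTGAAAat
Isg15 (chr4:156200819-156200968, minus strand): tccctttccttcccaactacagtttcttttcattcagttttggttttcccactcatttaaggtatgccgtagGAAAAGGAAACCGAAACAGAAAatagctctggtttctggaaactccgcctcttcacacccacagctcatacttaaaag
Bst2 (chr8:71537473-71537622, minus strand): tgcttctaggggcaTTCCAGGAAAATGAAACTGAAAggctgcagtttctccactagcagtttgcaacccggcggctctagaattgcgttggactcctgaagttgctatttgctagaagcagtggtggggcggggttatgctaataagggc
Igtp (chr11:58199406-58199555, plus strand): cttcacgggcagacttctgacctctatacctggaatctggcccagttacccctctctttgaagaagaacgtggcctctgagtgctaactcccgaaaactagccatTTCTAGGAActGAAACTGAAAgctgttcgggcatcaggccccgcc
Irgm2 (chr11:58214827-58214976, plus strand): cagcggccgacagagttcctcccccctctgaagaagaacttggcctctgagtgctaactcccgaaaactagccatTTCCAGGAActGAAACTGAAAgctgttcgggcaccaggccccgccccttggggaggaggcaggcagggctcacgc
Gbp2 (chr3:142620513-142620662, plus strand): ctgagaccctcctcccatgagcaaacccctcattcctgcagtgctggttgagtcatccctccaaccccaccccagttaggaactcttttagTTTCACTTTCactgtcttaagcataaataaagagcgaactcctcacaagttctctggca

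RefSeq promoter windows, from 250 bases before to 50 after the start, were matched by symbol for 36 of the 47 members. The ISRE letters occurred in 20 of these 36 (55.6%), in 14 of 28 type I-like and 6 of 8 interferon gamma-like promoters, against 3.99% of the 27025 promoters of all genes. The GAS letters occurred in 9 of 36 (25%), in 5 of 28 type I-like and 4 of 8 interferon gamma-like promoters, against 9.55% of all genes. Oas1a and Oas1g had 2 overlapping ISRE matches each, starting 20 and 14 bases before the start in Oas1a and 18 and 12 bases before it in Oas1g, and their windows were identical at 88.8% of aligned bases. Igtp and Irgm2 shared a GAS match followed by an ISRE match, and their windows were identical at 92.1% of aligned bases. Windows without a match included that of Irf7, and the match of letters describes the window only. The windows of Dhx58, Gbp6, Ifi27, Mx1, Mx2, Oas2, Parp9, Parp14, Rtp4, Usp18 and Zbp1 were not used here.

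Libraries held 13947483 to 16194224 counts over all genes, so the members rested on 15307 to 26353 counts per library. Levels between genes were compared in the authors' FPKM (counts scaled to gene length and library size), and between libraries in CPM (counts scaled to library size with TMM factors). The median member had 2.93 FPKM in TCM tumors, 2.40 FPKM in TCM peri-tumor tissue, 4.13 FPKM in control tumors and 3.47 FPKM in control peri-tumor tissue. Bst2, which tethers budding virus to the cell surface, was the most abundant member, at 133, 149, 126 and 226 FPKM in the same order of groups. Ifi27, a small interferon-induced membrane protein, came next, at 72.7, 55.6, 94.5 and 76.7 FPKM. At the other end Mx1 and Oas2 stayed under 1 FPKM in every group, and Mx2, Oas3 and Oasl2 did so too. Hepatocyte markers summed to 93200 to 229100 CPM per library, so the labelled tissue showed its defining genes.

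**Figure D1:**
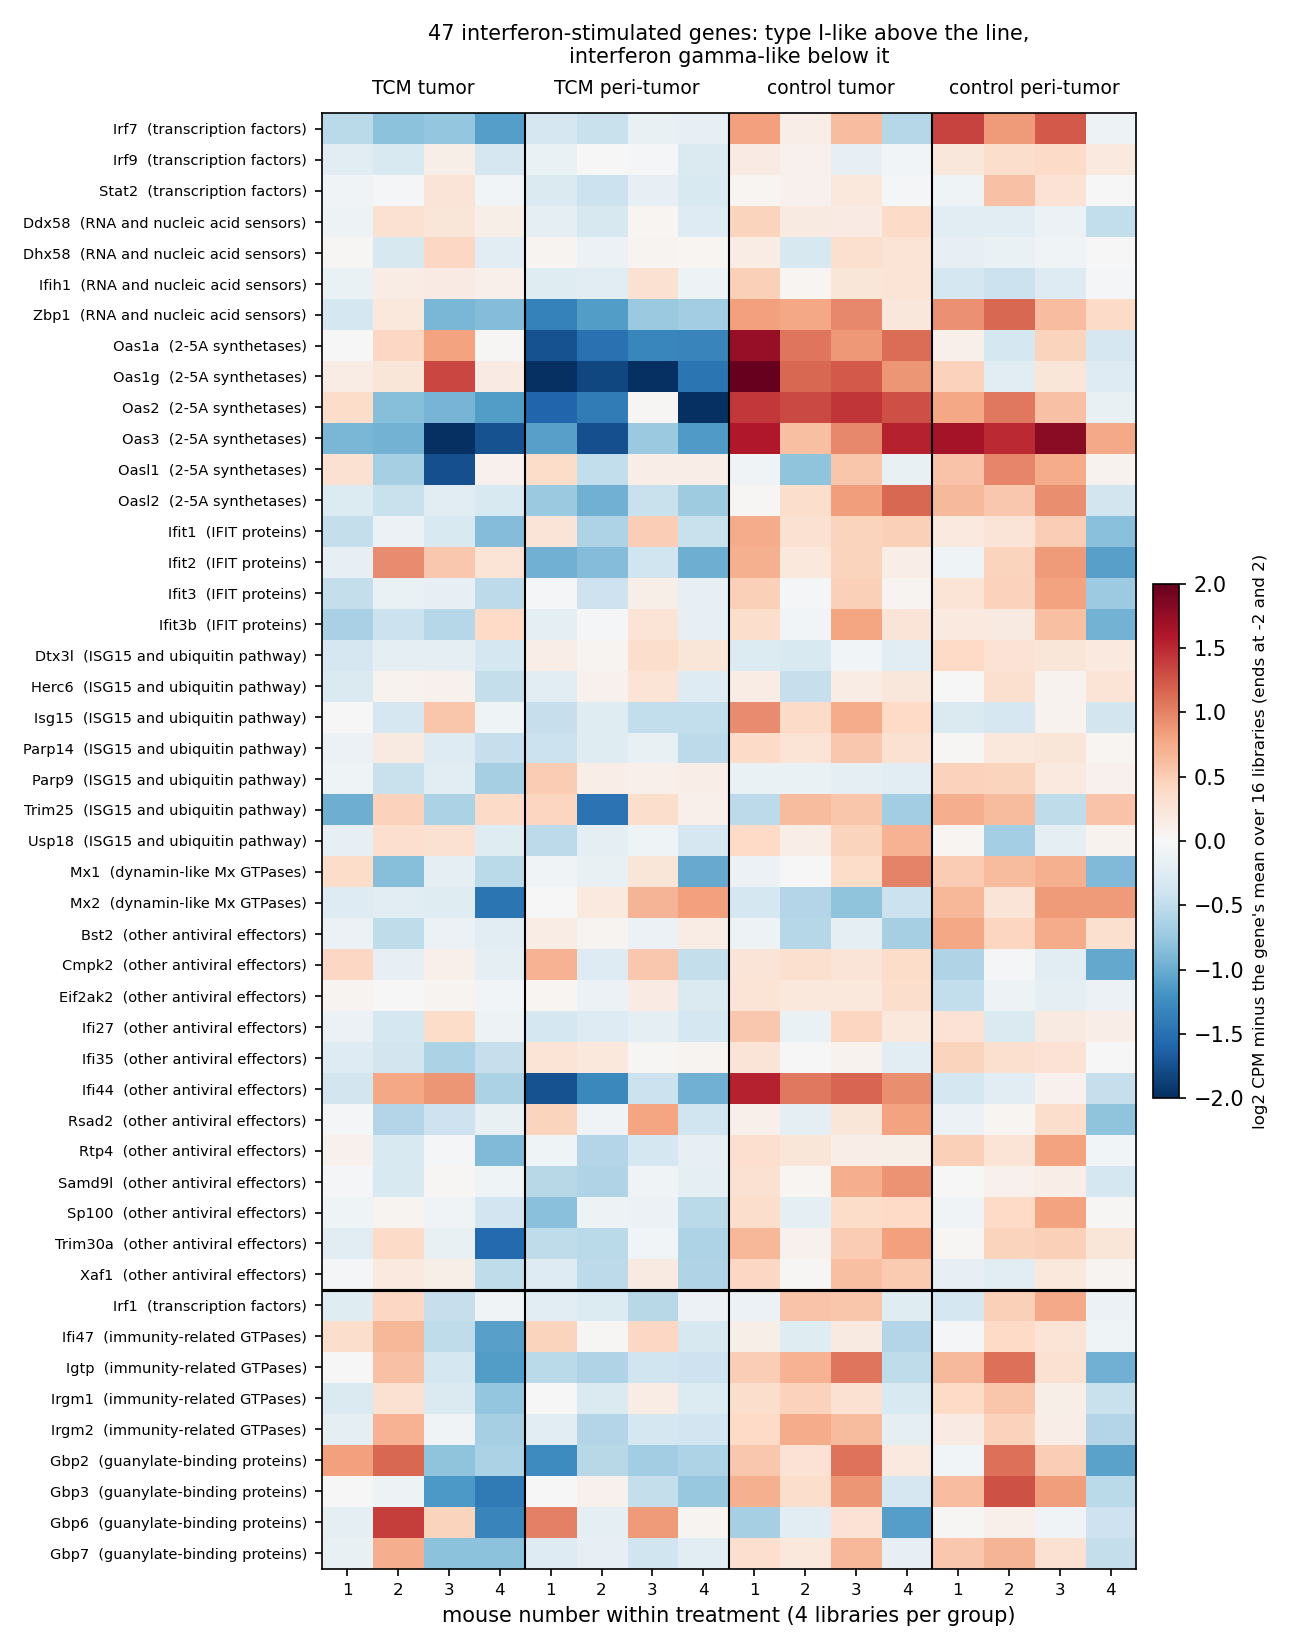
Heat map of the 47 members (rows, with their roles) in the 16 libraries (columns, 4 groups of 4 mice); color gives log2 CPM minus the gene's mean over all libraries, and colors end at -2 and 2. The Oas3 row is below its mean in all 8 TCM libraries, and control tumor 4 is the lowest control tumor in all 9 interferon gamma-like rows.

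The first comparison asked how the decoction was linked to these genes in the liver around the tumors. In TCM peri-tumor tissue 13 of the 38 type I-like members were lower than in control peri-tumor tissue and 0 were higher (edgeR quasi-likelihood test, Benjamini-Hochberg adjusted p under 0.05 over all genes tested). At an unadjusted p under 0.05, 17 of the 38 were lower and 1 was higher, and DESeq2 and limma-voom called 0 higher. None of the 9 interferon gamma-like members was called. At an unadjusted p under 0.05, 4 of these 9 were lower, a share close to that of the type I-like members. Of all 14865 genes tested 14.1% were called, 7.35% lower and 6.71% higher, and 29.6% had an unadjusted p under 0.05. The median log2 fold change was -0.41 for type I-like members and -0.54 for interferon gamma-like members, against 0.00 for all genes tested. In bulk tissue, fewer cells of a type and less RNA per cell cannot be told apart.

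The lower genes were led by the oligoadenylate synthetases, enzymes that sense double-stranded RNA and make the short adenylate chains that activate RNase L. Of the 6 members of this family, 5 fell. Oas3 had 1.19, 0.742, 1.51 and 1.15 CPM in TCM peri-tumor tissue, against 7.96, 7.08, 8.78 and 4.25 CPM in control peri-tumor tissue. Every TCM value was below every control value, for a log2 fold change of -2.61 ± 0.33 (SE; adjusted p = 0.000305). Oas1a had 3.90, 4.66, 5.29 and 5.24 CPM in TCM peri-tumor tissue, against 14.0, 10.3, 17.8 and 10.4 CPM in control peri-tumor tissue. The groups did not overlap, and the log2 fold change was -1.46 ± 0.24 (adjusted p = 0.00186). Oas1g had 1.06, 1.35, 1.13 and 1.73 CPM in TCM peri-tumor tissue, against 6.56, 4.11, 5.66 and 3.98 CPM in control peri-tumor tissue, again with no overlap (log2 fold change -1.94 ± 0.35, adjusted p = 0.00328). Oas1a and Oas1g share 57.6% and 54.7% of their 50-base words with other Oas1 genes, so the split of reads between them is uncertain.

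Oasl2, an Oas-like protein, had 3.77, 3.24, 4.61 and 3.84 CPM in TCM peri-tumor tissue, against 9.87, 9.13, 11.9 and 4.88 CPM in control peri-tumor tissue. All TCM values lay below the control values, the nearest being that of control mouse 4 (log2 fold change -1.21 ± 0.26, adjusted p = 0.00814). Oas2 averaged 0.867 ± 0.643 CPM in TCM peri-tumor tissue and 2.76 ± 0.875 CPM in control peri-tumor tissue (SD, n = 4 each), and 1 TCM library at 1.81 CPM overlapped the control range. Its log2 fold change was -1.69 ± 0.42 (adjusted p = 0.0172), and it was -2.31 without TCM peri-tumor 3. The sixth family member, Oasl1, which in mouse restrains translation of Irf7, averaged 13.3 ± 3.06 CPM in TCM peri-tumor tissue and 19.7 ± 4.92 CPM in control peri-tumor tissue and was not called.

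**Figure D2:**
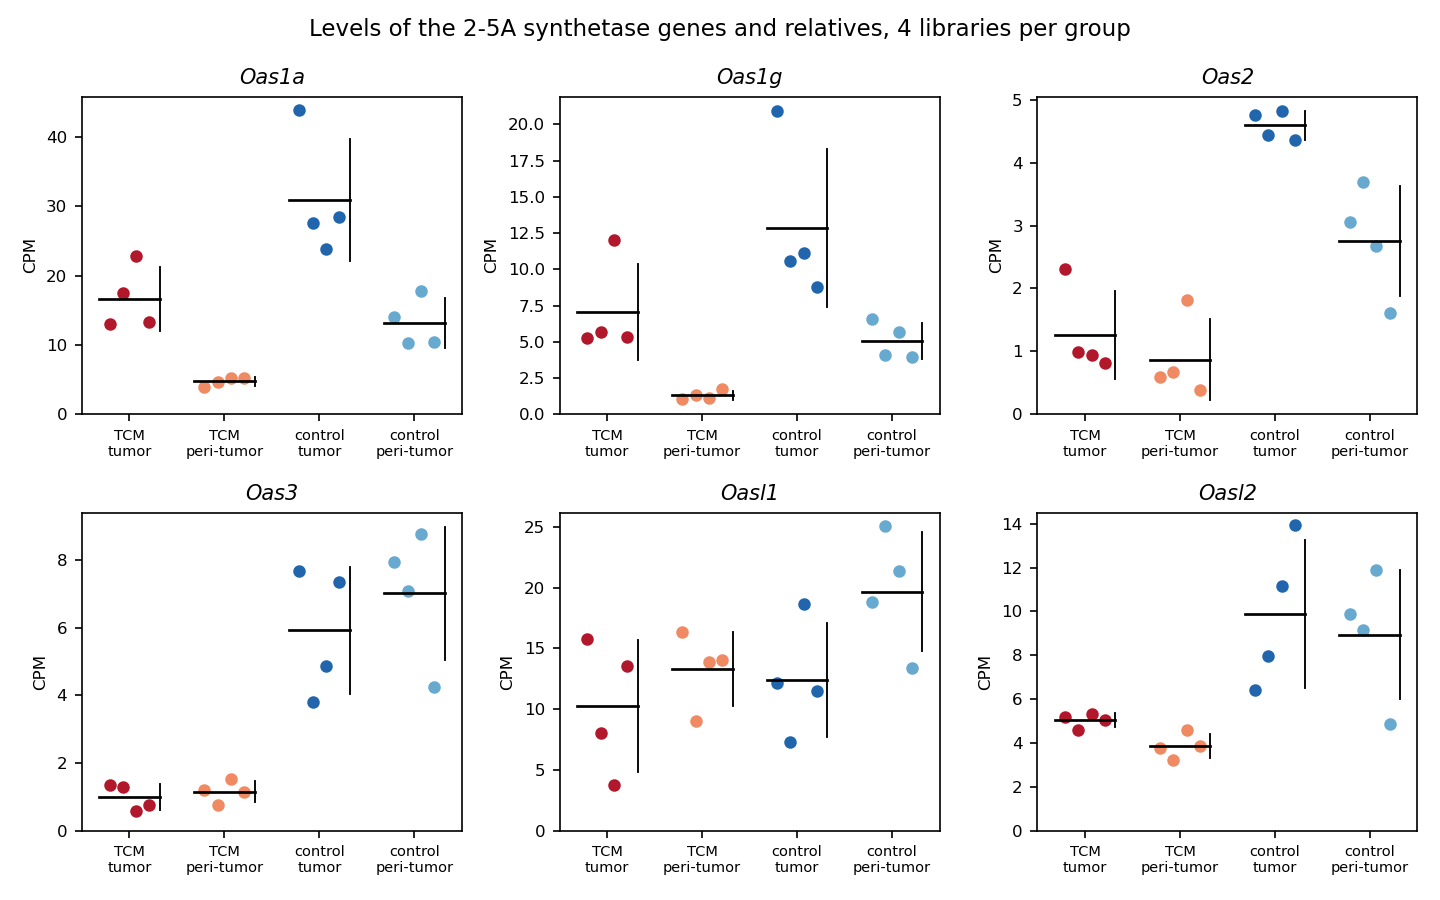
CPM of the 6 oligoadenylate synthetase genes in the 4 groups; points are libraries, horizontal lines are means and vertical lines 1 SD (n = 4). Oas3 in both TCM groups lies between 0.577 and 1.51 CPM and below every control library, while Oasl1 overlaps between all groups.

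Zbp1, a sensor of Z-form nucleic acid that can start necroptosis, fell as well. It had 4.50, 5.26, 6.88 and 7.04 CPM in TCM peri-tumor tissue, against 21.5, 25.3, 17.6 and 14.9 CPM in control peri-tumor tissue. No value overlapped, and the log2 fold change was -1.74 ± 0.26 (adjusted p = 0.001). The other sensors, Ddx58 (RIG-I), Ifih1 (MDA5) and Dhx58 (LGP2), were not called and had log2 fold changes of 0.08 to 0.21.

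Of the transcription factors, Irf7, which drives the interferon alpha genes, had 26.7, 24.9, 30.4 and 30.3 CPM in TCM peri-tumor tissue, against 86.2, 61.4, 78.9 and 31.5 CPM in control peri-tumor tissue. The TCM libraries lay close together and below all control libraries, of which control mouse 4 came nearest (log2 fold change -1.20 ± 0.29, adjusted p = 0.014). Stat2 had 24.4, 21.9, 26.5 and 24.1 CPM in TCM peri-tumor tissue, against 27.8, 44.6, 36.3 and 29.5 CPM in control peri-tumor tissue, and the groups did not overlap (log2 fold change -0.51 ± 0.13, adjusted p = 0.021). Irf9 had 32.2, 35.7, 34.3 and 29.0 CPM in TCM peri-tumor tissue, against 41.5, 45.2, 46.3 and 40.4 CPM in control peri-tumor tissue. The groups again did not overlap, with a log2 fold change of -0.40 ± 0.11 (adjusted p = 0.0279). Irf1, the main factor of the interferon gamma response, averaged 13.0 ± 1.57 CPM in TCM peri-tumor tissue and 18.9 ± 6.64 CPM in control peri-tumor tissue and was not called (log2 fold change -0.54 ± 0.26, adjusted p = 0.169).

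The remaining calls were Parp14, an ADP-ribosyltransferase, Bst2, Rtp4, a receptor chaperone, and Sp100, a nuclear body protein, with log2 fold changes of -0.70 to -0.46 and adjusted p of 0.0277 to 0.0387. All 4 had groups that did not overlap. Over the 47 members 13 had all TCM libraries below all control libraries and 0 above, against 8.86% and 9.12% of all genes. By contrast Isg15, a ubiquitin-like protein, averaged 11.7 ± 1.02 CPM in TCM peri-tumor tissue and 13.4 ± 1.99 CPM in control peri-tumor tissue and was not called. Ifit1, which binds foreign RNA ends, averaged 13.9 ± 5.08 and 15 ± 5.01 CPM in the same groups and was not called either. Cmpk2, a mitochondrial nucleotide kinase, had the most positive value, a log2 fold change of 0.63 ± 0.26 (adjusted p = 0.111).

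With single libraries left out, 6 to 15 type I-like members were lower in TCM peri-tumor tissue, with 6 without TCM peri-tumor 1 and 7 without control peri-tumor 2 or control peri-tumor 3. Oas1a, Oas1g, Oas3, Oasl2, Irf7 and Zbp1 were called under each of 17 alternatives. Oas2 lost the call under 2 of the 17, Parp14 under 4, and Irf9 and Stat2 under 5 each. Bst2 and Sp100 lost it under 6 each and Rtp4 under 9. The adjusted p of these lost calls was 0.051 to 0.133. Kupffer cell markers moved alongside: 6 of 8 fell, against 7.35% of all genes, and none was at 0 in a group. Their sum was 251 to 324 CPM in TCM peri-tumor tissue and 502 to 1124 CPM in control peri-tumor tissue. Of the 8 markers of recruited macrophages 1 fell and all had negative values (55.5 to 98.6 CPM in TCM and 101.4 to 200 CPM in control peri-tumor tissue). Neutrophil markers summed to 1.21 to 2.98 CPM in TCM and 6.28 to 10.4 CPM in control peri-tumor tissue, with Ly6g at 0 in both and Camp at 0 in TCM mice. The TCM sums rest on 16 to 45 counts per library. Only 2 of these 6 markers passed the filter and 0 were called (edgeR adjusted p = 0.178 and 0.279). What part any of these cell types had in the result was not tested.

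In tumors 9 of the 38 type I-like members were lower in TCM than in control mice and 0 were higher, and none of the 9 interferon gamma-like members was called (1 was lower at an unadjusted p under 0.05). At an unadjusted p under 0.05, 18 type I-like members were lower and 0 higher, and DESeq2 and limma-voom called 0 higher. Of all genes 7.28% were called, 2.72% lower and 4.55% higher, and 24.7% had an unadjusted p under 0.05. The median log2 fold change was -0.44 for type I-like and -0.40 for interferon gamma-like members, against 0.00 for all genes tested. The plot of TCM against control shows both tissues side by side.

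Oas3 had 1.34, 1.30, 0.577 and 0.753 CPM in TCM tumors, against 7.67, 3.81, 4.88 and 7.34 CPM in control tumors. The groups were far apart, with a log2 fold change of -2.56 ± 0.33 (adjusted p = 0.000967). Oas2 had 2.31, 0.993, 0.938 and 0.821 CPM in TCM tumors, against 4.75, 4.43, 4.82 and 4.36 CPM in control tumors. The TCM libraries were all lower and TCM tumor 1 came nearest (log2 fold change -1.84 ± 0.40, adjusted p = 0.015). Oas1a had 13.0, 17.5, 22.8 and 13.3 CPM in TCM tumors, against 43.8, 27.6, 23.8 and 28.4 CPM in control tumors, with TCM tumor 3 just below the lowest control tumor (log2 fold change -0.89 ± 0.23, adjusted p = 0.0286). Oasl2 averaged 5.04 ± 0.32 CPM in TCM tumors and 9.88 ± 3.38 CPM in control tumors, without overlap (log2 fold change -0.97 ± 0.26, adjusted p = 0.034). Oas1g had a log2 fold change of -0.86 ± 0.31 in tumors and was not called (adjusted p = 0.0955), and TCM tumor 3, at 12.1 CPM, lay within the control range.

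Zbp1 had 8.93, 13.2, 6.06 and 6.30 CPM in TCM tumors, against 20.2, 19.6, 22.3 and 13.4 CPM in control tumors. The highest TCM tumor and the lowest control tumor nearly met (log2 fold change -1.13 ± 0.25, adjusted p = 0.0163). Irf7 had 23.3, 19.2, 19.9 and 15.8 CPM in TCM tumors, against 59.5, 37.3, 52.0 and 22.8 CPM in control tumors. Control tumor 4 fell inside the TCM range and the other control tumors above it (log2 fold change -1.13 ± 0.29, adjusted p = 0.0298). Parp14 had 43.5, 53.6, 39.5 and 34.4 CPM in TCM tumors, against 61.6, 57.2, 68.5 and 58.2 CPM in control tumors, a smaller but complete separation (log2 fold change -0.52 ± 0.13, adjusted p = 0.0241). Ifi35, an interferon-induced leucine zipper protein, and Samd9l, a translation inhibitor, also fell, with log2 fold changes of -0.46 ± 0.12 and -0.63 ± 0.18.

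Several members followed in every comparison were not called in tumors. Irf9 averaged 31.5 ± 4.79 CPM in TCM tumors and 35.8 ± 3.60 CPM in control tumors, and Stat2 averaged 30.2 ± 3.47 and 31.4 ± 2.21 CPM. Isg15 averaged 16.4 ± 4.60 CPM in TCM tumors and 24.4 ± 4.72 CPM in control tumors (log2 fold change -0.58 ± 0.18, adjusted p = 0.0633). Ifit1 had 10, 12.8, 11.2 and 7.60 CPM in TCM tumors, against 23.4, 17.2, 19.0 and 19.4 CPM in control tumors, which did not overlap (log2 fold change -0.92 ± 0.27, adjusted p = 0.0531). DESeq2 called both of them (adjusted p = 0.0343 and 0.0177). In all, 13 of the 47 members had every TCM tumor below every control tumor and 0 above, against 7.04% and 8.83% of all genes.

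**Figure D3:**
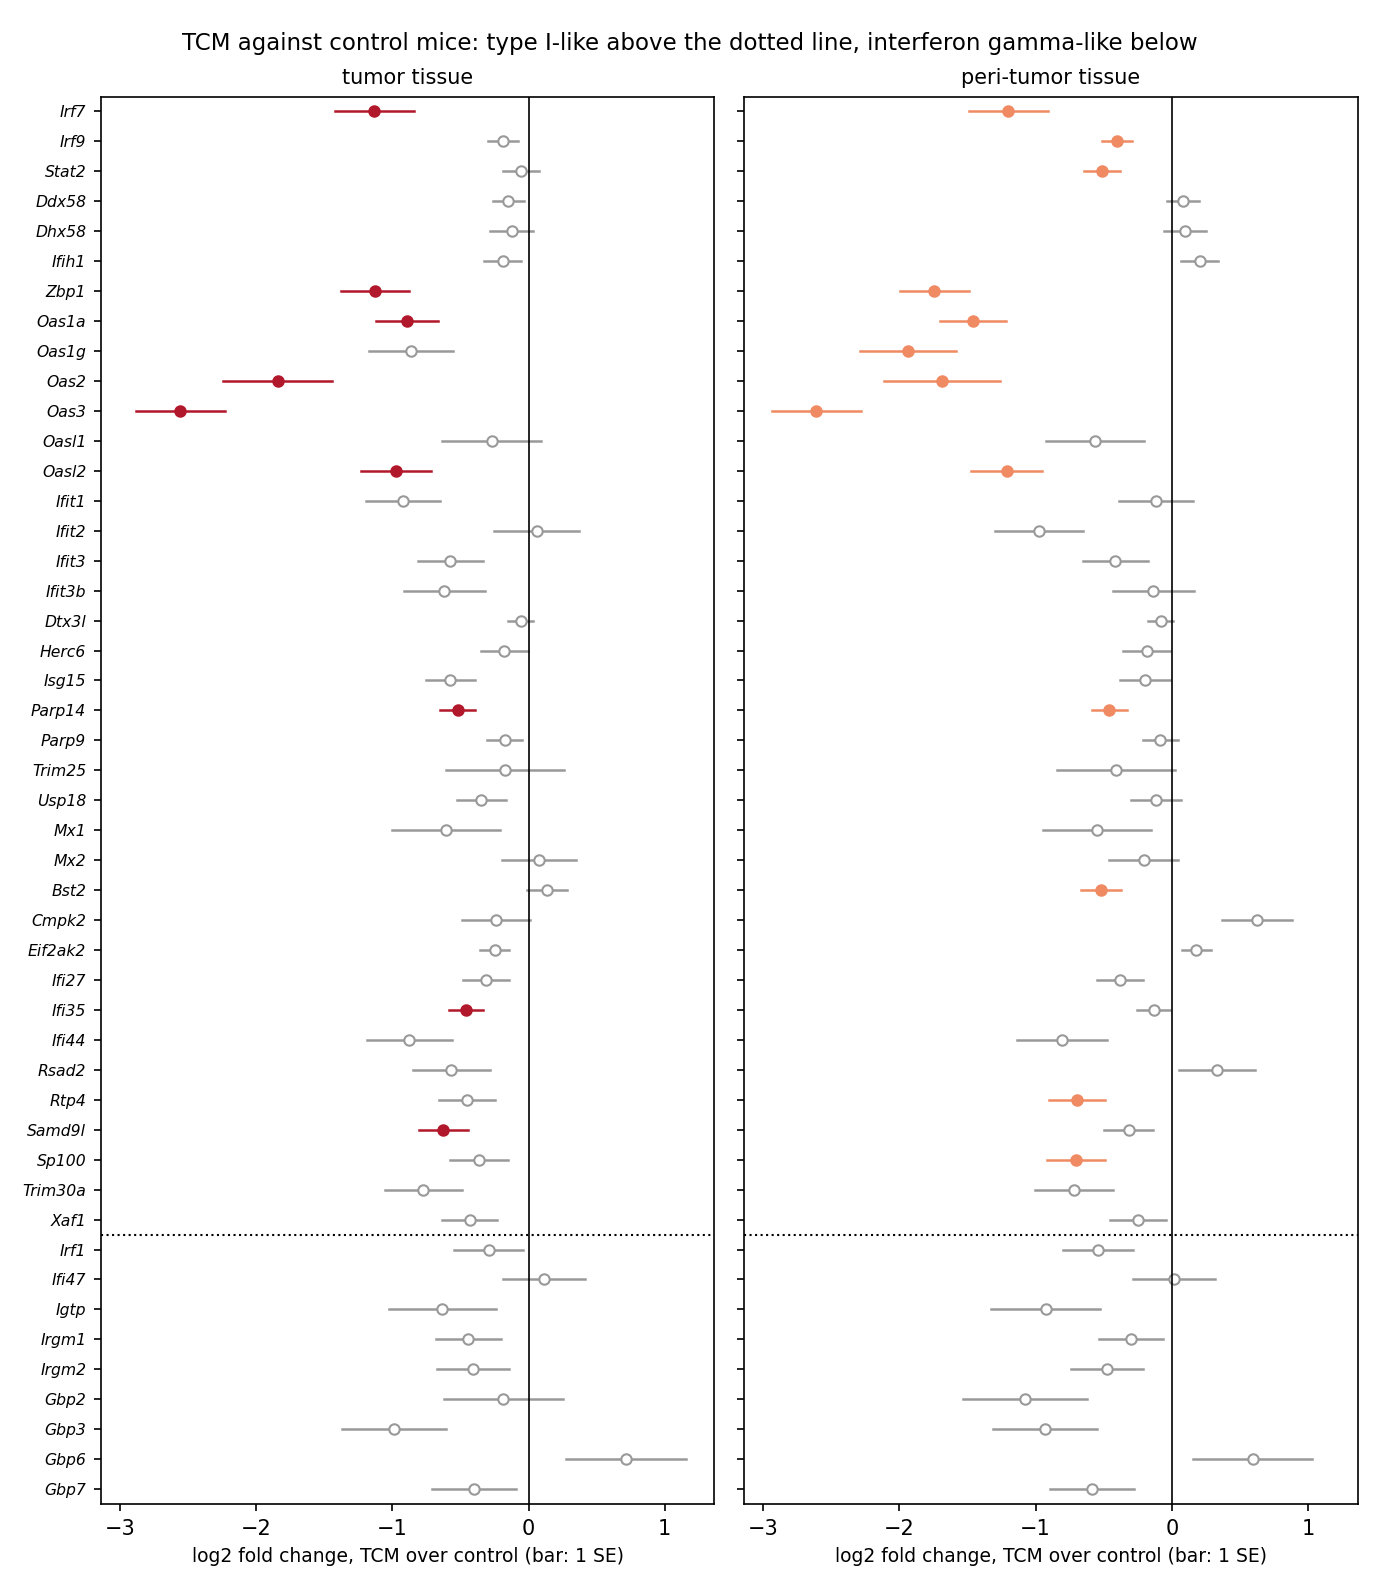
Log2 fold change of TCM over control for each member in tumor (left) and peri-tumor tissue (right), with bars of 1 SE; filled points are called at an adjusted p under 0.05. In both tissues every filled point lies left of 0, Oas3 lies farthest left at -2.56 and -2.61, and all points below the dotted line (interferon gamma-like) are open.

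With any 1 library left out, 3 to 7 type I-like members were called lower in TCM tumors, so this count rested on all 8 libraries. Oas3 was called under each of 17 alternatives. Oas2 and Zbp1 each lost the call once, without TCM tumor 3 (adjusted p = 0.0521 and 0.0557). The other 6 lost it more often: Oas1a under 6 of the 17, Irf7 and Parp14 under 7 each, Oasl2 and Ifi35 under 9 each and Samd9l under 11, with adjusted p of 0.0506 to 0.132. Markers of recruited macrophages moved alongside: 5 of 8 fell, against 2.72% of all genes, and none was at 0 in a group. Their sum was 45.4 to 117 CPM in TCM tumors and 98.3 to 367 CPM in control tumors. Of the 8 Kupffer cell markers none was called here and 1 had an unadjusted p under 0.05 (38.5 to 200 CPM in TCM tumors and 125 to 191 CPM in control tumors). What part either had in the result was not tested.

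The comparisons in the 2 tissues use different libraries of the same mice. Irf7, Oas1a, Oas2, Oas3, Oasl2, Parp14 and Zbp1 were lower in both. They were 7 of the 13 members called in peri-tumor tissue (53.9%) and 7 of the 9 called in tumors (77.8%). The same overlap over all genes was not counted, so these shares cannot be read as particular to the members. Oas2, Oas3, Oas1g and Oas1a lie on the minus strand of chromosome 5, between 120730333 and 120907521 (GRCm38, GENCODE M21), with Oas1b and Oas1c among them. Of the 6 Oas genes tested there, 4 were lower in TCM peri-tumor tissue and 3 in TCM tumors, with medians of -1.57 and -0.88. Among the 17 other tested genes within 500 kb, 3 were lower and 1 higher in TCM peri-tumor tissue (median -0.21). Of all genes 7.35% were lower and 6.71% higher there. Rasal1 fell the most of the 17, by a log2 fold change of -2.49 in peri-tumor tissue (adjusted p = 0.0126), near the value of Oas3. None of the 17 was called in tumors (median -0.05). Oasl1 and Oasl2 lie elsewhere on the same chromosome, near position 114923240, and of this pair Oasl2 was called between treatments and Oasl1 was not.

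Tumors were set against the peri-tumor tissue of the same treatment next. In TCM mice 5 of the 38 type I-like members were higher in tumors and 4 lower, against 17.3% and 15.6% of all genes (32.9% called in all). The median log2 fold change of type I-like members was 0.05, against 0.00 for all genes. The share of members called was thus below that of all genes. The calls were divided, with Oas1a, Oas1g and Ifi44 among the higher genes and Parp9 and Dtx3l among the lower.

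Oas1a had 13.0, 17.5, 22.8 and 13.3 CPM in TCM tumors, against 3.90, 4.66, 5.29 and 5.24 CPM in TCM peri-tumor tissue. All tumors lay above all peri-tumor samples (log2 fold change 1.80 ± 0.24, adjusted p = 5.15e-05). Oas1g had 5.29, 5.65, 12.1 and 5.34 CPM in TCM tumors, against 1.06, 1.35, 1.13 and 1.73 CPM in TCM peri-tumor tissue, likewise without overlap and with TCM tumor 3 far above the others (log2 fold change 2.41 ± 0.35, adjusted p = 9.94e-05). Ifi44, an antiviral protein of unsettled mechanism, had 8.39, 18.6, 20.1 and 6.98 CPM in TCM tumors, against 3.24, 4.45, 8.09 and 5.56 CPM in TCM peri-tumor tissue. TCM tumor 4 lay inside the peri-tumor range (log2 fold change 1.34 ± 0.33, adjusted p = 0.0052). Ifit2 rose to 12.5 ± 3.96 CPM in TCM tumors, against 5.33 ± 1.09 CPM in TCM peri-tumor tissue (log2 fold change 1.23 ± 0.33, adjusted p = 0.0082). Ddx58 rose by a log2 fold change of 0.32 ± 0.12 (adjusted p = 0.0459), and the call was lost with the mouse as a block (adjusted p = 0.0687).

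Among the lower genes, Dtx3l and Parp9 form a ubiquitin ligase and ADP-ribosyltransferase pair. Dtx3l had 33.8, 38.0, 37.4 and 33.5 CPM in TCM tumors, against 46.9, 44.7, 54.9 and 50.7 CPM in TCM peri-tumor tissue (log2 fold change -0.47 ± 0.09, adjusted p = 0.00104). Parp9 had 35.0, 27.4, 31.9 and 23.5 CPM in TCM tumors, against 52.8, 40.7, 40.1 and 40.9 CPM in TCM peri-tumor tissue (log2 fold change -0.57 ± 0.13, adjusted p = 0.00344). Neither gene overlapped between tissues. Ifi35 had 19.3, 17.8, 14.9 and 16.7 CPM in TCM tumors, against 27.8, 26.6, 23.6 and 23.9 CPM in TCM peri-tumor tissue, also apart (log2 fold change -0.57 ± 0.12, adjusted p = 0.00234). Mx2, a dynamin-like GTPase, fell to 2.05 ± 0.682 CPM in TCM tumors, against 3.90 ± 1.02 CPM in TCM peri-tumor tissue (log2 fold change -0.92 ± 0.26, adjusted p = 0.0136).

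In control mice 10 type I-like members were higher in tumors and 4 lower, against 22.0% and 21.2% of all genes (43.2% called in all). The median log2 fold change was 0.19, and it was -0.01 without control peri-tumor 4 and -0.04 without both libraries of control mouse 4. Oas1a had 43.8, 27.6, 23.8 and 28.4 CPM in control tumors, against 14.0, 10.3, 17.8 and 10.4 CPM in control peri-tumor tissue, without overlap (log2 fold change 1.23 ± 0.23, adjusted p = 0.000455). Isg15 had 30.2, 20.4, 26.3 and 20.7 CPM in control tumors, against 12.8, 12.4, 16.4 and 12.1 CPM in control peri-tumor tissue, again apart (log2 fold change 0.86 ± 0.18, adjusted p = 0.00117). Usp18, the protease that removes Isg15 from proteins, also rose (log2 fold change 0.59 ± 0.18, adjusted p = 0.015). Its call was lost without control tumor 4 or control peri-tumor 2 (adjusted p = 0.0562 and 0.0613).

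Of the 4 sensors of RNA and other nucleic acid, 2 rose in control tumors. Ddx58 had 49.9, 41.6, 40.8 and 48.0 CPM in control tumors, against 31.8, 31.5, 33.6 and 25.9 CPM in control peri-tumor tissue (log2 fold change 0.55 ± 0.12, adjusted p = 0.00128). Ifih1 averaged 58.6 ± 7.38 CPM in control tumors and 40.9 ± 5.10 CPM in control peri-tumor tissue (log2 fold change 0.52 ± 0.14, adjusted p = 0.00563). Both separated the tissues completely, whereas Dhx58 and Zbp1 were not called. Oas1g, Ifi44, Eif2ak2 (the kinase PKR), Cmpk2 and Samd9l completed the higher genes, with log2 fold changes of 0.48 to 1.41. The calls of Cmpk2 and Samd9l were lost without control tumor 3 or control tumor 4, among other alternatives (adjusted p = 0.0609 and 0.0692 for Cmpk2, 0.0712 and 0.0831 for Samd9l).

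Bst2 was the member with the lowest p in control mice and it fell. It had 161, 116, 150 and 108.4 CPM in control tumors, against 295, 233, 289 and 215 CPM in control peri-tumor tissue. The tissues did not overlap (log2 fold change -0.95 ± 0.15, adjusted p = 9.85e-05). Dtx3l had 35.4, 34.6, 41.3 and 37.1 CPM in control tumors, against 56.7, 52.3, 50.7 and 49.1 CPM in control peri-tumor tissue (log2 fold change -0.49 ± 0.09, adjusted p = 0.000429). Mx2 had 2.22, 1.87, 1.61 and 2.09 CPM in control tumors, against 4.46, 3.39, 5.09 and 5.09 CPM in control peri-tumor tissue (log2 fold change -1.21 ± 0.26, adjusted p = 0.00167). Both were lower in every tumor than in every peri-tumor sample, and Parp9 fell with them (log2 fold change -0.47 ± 0.13, adjusted p = 0.00782).

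Ddx58, Ifi44, Oas1a and Oas1g were higher in tumors of both treatments, 4 of the 5 called in TCM and 4 of the 10 in control mice. Dtx3l, Mx2 and Parp9 were lower in both, 3 of 4 in each. How many of all genes were called in both treatments was not counted, so these overlaps cannot be read as particular to the members. The call of Ddx58 in TCM mice was lost under 9 of 16 alternatives (adjusted p of 0.0584 to 0.127). In control mice all 8 Kupffer cell markers fell in tumors (125 to 191 CPM in control tumors and 502 to 1124 CPM in control peri-tumor tissue), and 5 of 8 fell in TCM tumors (38.5 to 200 CPM, against 251 to 324 CPM in TCM peri-tumor tissue). Over all genes 21.2% fell in control and 15.6% in TCM tumors. Markers of recruited macrophages rose for 3 of 8 in TCM and 6 of 8 in control tumors, where 17.3% and 22.0% of all genes rose. The sums of these 8 markers overlapped between tissues in both treatments. They were 45.4 to 117 CPM in TCM tumors and 55.5 to 98.6 CPM in TCM peri-tumor tissue. In control mice the sums were 98.3 to 367 CPM in tumors and 101.4 to 200 CPM in peri-tumor tissue. Of the 6 markers of stellate cells and fibroblasts 4 rose in tumors of both treatments, and 2 fell in TCM and 1 in control tumors (224 to 326 CPM in TCM tumors and 153 to 195 CPM in TCM peri-tumor tissue, 272 to 495 CPM in control tumors and 97.8 to 189 CPM in control peri-tumor tissue). Cholangiocyte markers summed to 412 to 1235 CPM in TCM tumors and 32.7 to 63.1 CPM in TCM peri-tumor tissue, and to 898.5 to 2227 CPM in control tumors and 32.7 to 88.0 CPM in control peri-tumor tissue, nearly all of it Spp1, while Krt7, Krt19 and Epcam were under 2 CPM in every library. Of 6 markers of plasmacytoid dendritic cells, the main makers of type I interferon, only Ly6d passed the filter, and it rose in tumors of both treatments (41.0 to 653.6 CPM in TCM tumors, 1.01 to 7.94 CPM in TCM peri-tumor tissue, 511.8 to 774 CPM in control tumors and 2.42 to 5.73 CPM in control peri-tumor tissue). Siglech, the defining one, was at 0.0684 to 2.05 CPM in TCM tumors and at most 0.716 CPM in control tumors. Their part in these results was not tested.

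**Figure D4:**
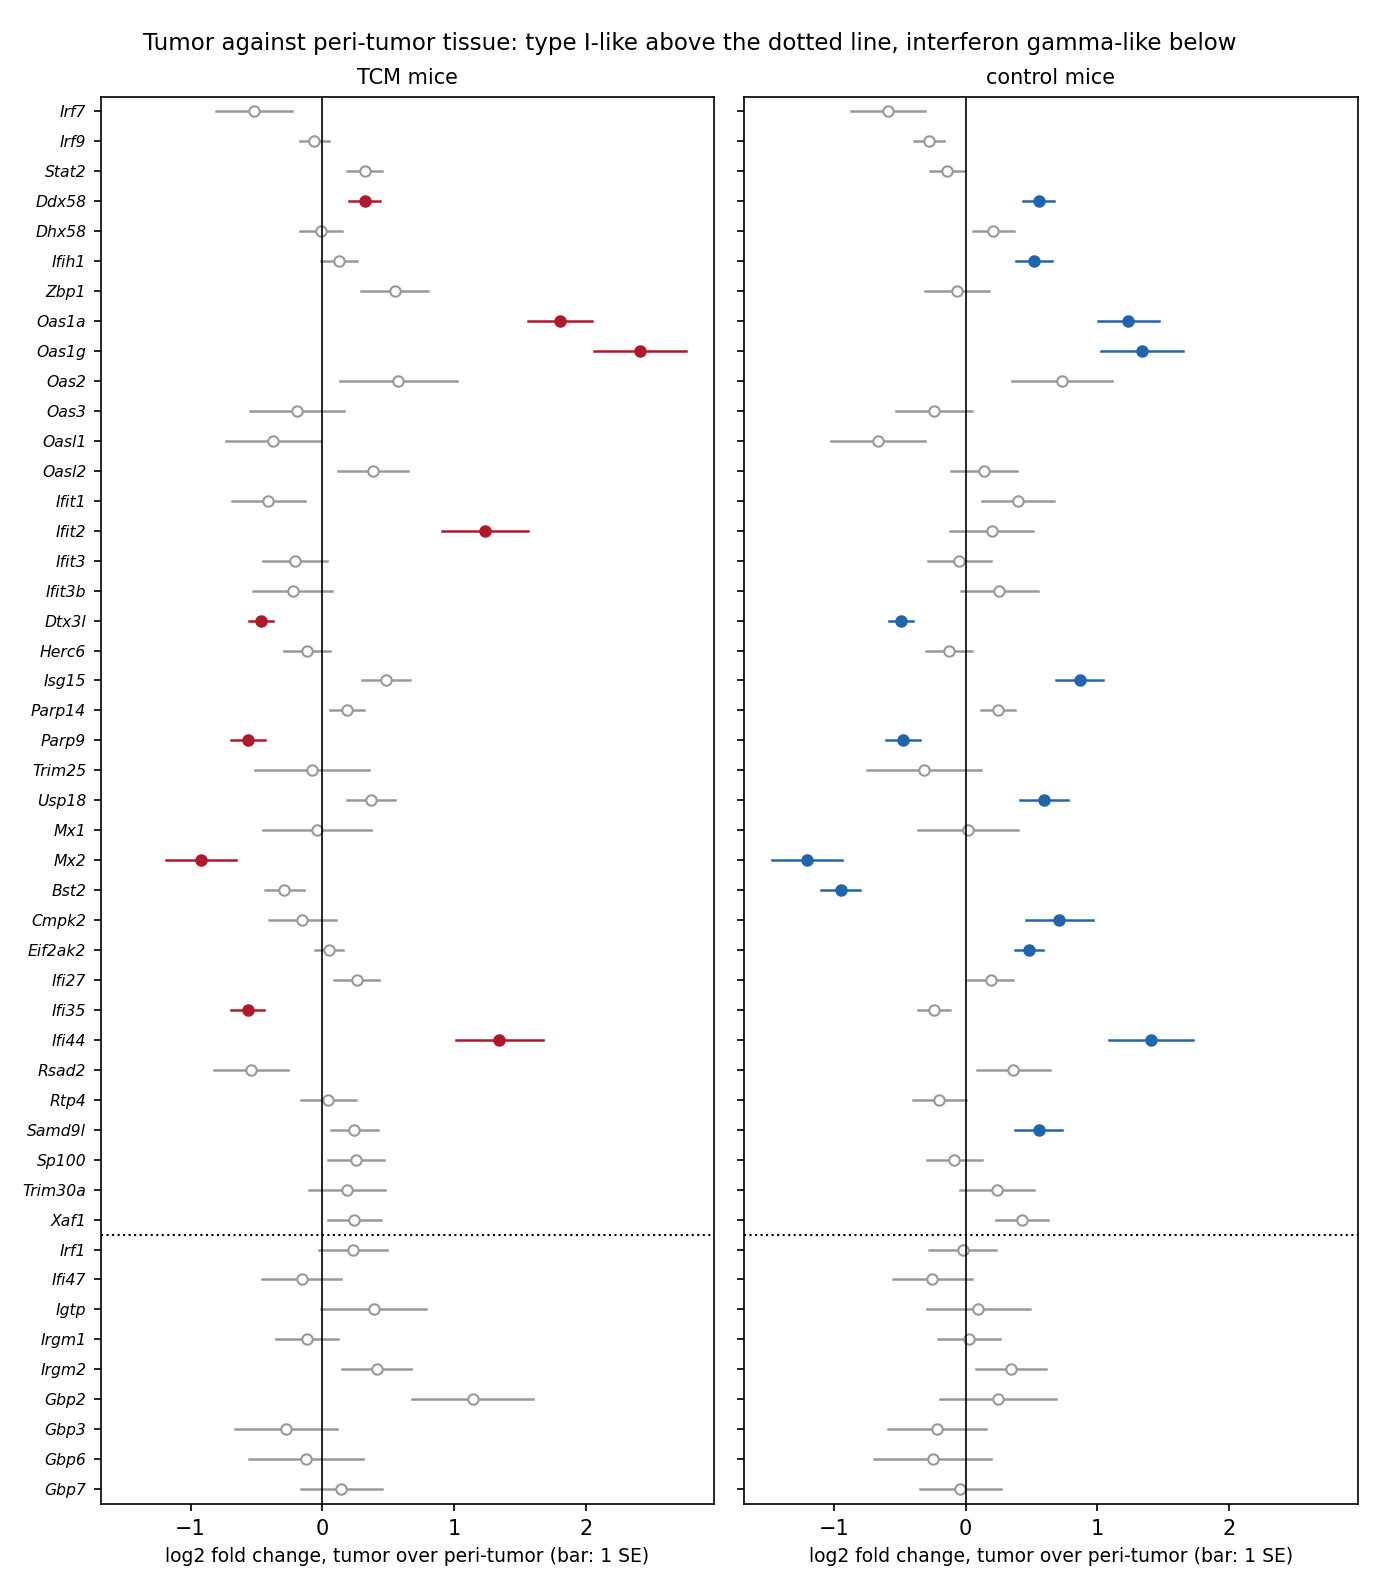
Log2 fold change of tumor over peri-tumor tissue for each member in TCM (left) and control mice (right), with bars of 1 SE; filled points are called at an adjusted p under 0.05. Filled points lie on both sides of 0, with Oas1a, Oas1g and Ifi44 to the right and Mx2, Parp9 and Dtx3l to the left in both panels, and Bst2 is filled in control mice only.

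Irf7 showed what the pairing of tissues within a mouse adds. It had 23.3, 19.2, 19.9 and 15.8 CPM in TCM tumors, against 26.7, 24.9, 30.4 and 30.3 CPM in the peri-tumor tissue of the same mice, and 59.5, 37.3, 52.0 and 22.8 CPM in control tumors, against 86.2, 61.4, 78.9 and 31.5 CPM in control peri-tumor tissue. The tumor was the lower tissue in each of the 8 mice. Irf7 was not called without the mouse in the fit (log2 fold change -0.52 ± 0.29, adjusted p = 0.185, in TCM mice and -0.59 ± 0.28, adjusted p = 0.108, in control mice). With the mouse as a block it was called in both (adjusted p = 0.00702 and 0.00261).

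Of the other followed members, Irf9 and Stat2 were not called between tissues in either treatment, Stat2 reaching an adjusted p of 0.0498 in TCM mice with the mouse as a block (log2 fold change 0.32). Irf9 was called lower in control tumors by DESeq2 (adjusted p = 0.0485) but not by edgeR (log2 fold change -0.28 ± 0.11, adjusted p = 0.058). Isg15 was not called in TCM mice (log2 fold change 0.48 ± 0.18, adjusted p = 0.0521). Ifit1 was called in neither treatment, with log2 fold changes of -0.41 ± 0.28 in TCM and 0.40 ± 0.27 in control mice.

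Whether the tumor effect itself differed between treatments was tested as an interaction. No member was called, with 7 of the 47 at an unadjusted p under 0.05, and of all genes 1.11% were called (0.706% with a positive and 0.404% with a negative difference) and 17.5% had an unadjusted p under 0.05. DESeq2 called 1 member, Bst2, and limma-voom called 0. The 5 members with the lowest p were Bst2, Eif2ak2, Stat2, Cmpk2 and Oas1g. For Bst2 the tumor effect was -0.29 ± 0.15 in TCM and -0.95 ± 0.15 in control mice, a difference of 0.66 ± 0.21 (adjusted p = 0.115; 0.0435 by DESeq2). For Eif2ak2 the difference was -0.43 ± 0.15, for Stat2 0.46 ± 0.19, for Cmpk2 -0.86 ± 0.36 and for Oas1g 1.07 ± 0.46, with adjusted p of 0.156 to 0.242. None of these 5 differences passed the threshold by edgeR.

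The 9 interferon gamma-like members were called in none of the 5 comparisons by edgeR with all 16 libraries and no block. At an unadjusted p under 0.05 there were 0 in the interaction and in tumor against peri-tumor tissue of control mice, 1 higher in TCM tumors than in TCM peri-tumor tissue, 4 lower in TCM than in control peri-tumor tissue and 1 lower in TCM than in control tumors. Between tissues 42.8% of all genes in TCM mice and 50% in control mice had such a p. DESeq2 called 1, Gbp2 in TCM tumors against peri-tumor tissue (adjusted p = 0.0368). Limma-voom called 2 in TCM against control peri-tumor tissue, Igtp and Gbp3, and 1 in TCM against control tumors, Gbp3 (adjusted p = 0.0476, 0.0341 and 0.0411).

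The guanylate-binding protein Gbp2, which coats vacuoles of intracellular microbes, had 13.1, 16.6, 4.26 and 4.79 CPM in TCM tumors, 3.11, 5.06, 4.61 and 4.86 CPM in TCM peri-tumor tissue, 10.8, 9.07, 15.8 and 8.54 CPM in control tumors and 7.13, 16, 10.4 and 3.56 CPM in control peri-tumor tissue. TCM peri-tumor libraries lay closest together, and those of TCM tumors and control peri-tumor tissue spread the most. Its log2 fold change between TCM and control was -1.08 ± 0.46 in peri-tumor tissue (adjusted p = 0.125). The immunity-related GTPase Irgm1 had 22.1, 33.6, 22.3 and 15.8 CPM in TCM tumors, 27.1, 22.2, 29.9 and 22.5 CPM in TCM peri-tumor tissue, 34.5, 37.5, 33.6 and 21.9 CPM in control tumors and 35.7, 39.9, 29.5 and 19.9 CPM in control peri-tumor tissue. All groups overlapped. Irf1 had 13.3, 21.1, 11.5 and 15.1 CPM in TCM tumors, 13.6, 13.1, 10.8 and 14.5 CPM in TCM peri-tumor tissue, 14.6, 23.5, 23.3 and 13.4 CPM in control tumors and 12.4, 21.9, 26.9 and 14.7 CPM in control peri-tumor tissue, again overlapping. Gbp6, at 14.5 ± 10.5 CPM in TCM tumors and 8.86 ± 3.63 CPM in control tumors, had the most positive log2 fold change of the 9 between treatments in tumors, 0.72 ± 0.44, but it shares 59.7% of its words with other genes and is uncertain.

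Single libraries were the lowest or highest of their group for most of these genes. Control tumor 4 was the lowest control tumor for 9 of 9 interferon gamma-like members and control peri-tumor 4 the lowest for 8 of 9, while the same libraries were lowest for 30.9% and 31.9% of all genes tested. TCM tumor 2 was the highest TCM tumor for 8 of 9, against 26.4% of all genes, and control peri-tumor 2 the highest of its group for 8 of 9, against 22.6%. The sum of the 9 was 216, 349, 181 and 127 CPM in TCM tumors, 208, 174, 200 and 178 CPM in TCM peri-tumor tissue, 282, 315, 357 and 180 CPM in control tumors and 277, 362, 274 and 154 CPM in control peri-tumor tissue. Without both libraries of control mouse 4, Igtp, Gbp2 and Gbp3 were called lower in TCM than in control peri-tumor tissue, with log2 fold changes of -1.21, -1.35 and -1.19 (adjusted p = 0.0105, 0.0375 and 0.0158).

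Markers of T and NK cells, the main source of interferon gamma, summed to 11.7, 22.2, 4.33 and 3.56 CPM in TCM tumors, 4.03, 3.37, 3.40 and 3.45 CPM in TCM peri-tumor tissue, 11.98, 12.5, 19.8 and 6.63 CPM in control tumors and 9.23, 9.38, 13.2 and 2.51 CPM in control peri-tumor tissue. TCM tumor 2 was again the highest of its group, and control tumor 4 and control peri-tumor 4 again the lowest. Of these 12 markers 11 were tested. In TCM peri-tumor tissue 1 was lower than in control peri-tumor tissue, where 7.35% of all genes were lower, and 0 were called between the tumors. What part these cells had in the spread was not tested. Neutrophil markers reached 84.6 CPM in control tumor 4, against 2.76 to 6.93 CPM in the other control tumors, and that library thus stood apart in these markers too.

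The interferons themselves were hardly counted. None of 21 interferon genes passed the filter, 17 had 0 counts in every library, and all of them together had 33 counts over the 16 libraries. Ifng had 8 counts in TCM tumors, 2 in TCM peri-tumor tissue, 6 in control tumors and 3 in control peri-tumor tissue, and Ifnk, an interferon of keratinocytes, had 3, 4, 1 and 1. Ifnz had 4 counts and Ifnb1 had 1 count in all. At this depth no difference in an interferon gene was detectable, and intervals of so few counts would cover counting error only.

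All 6 receptor genes were tested, and 4 were higher in tumors of both treatments, where 17.3% of all genes in TCM and 22.0% in control mice were higher. Ifngr1 had 43.3, 53.7, 41.1 and 47.6 CPM in TCM tumors, against 10.1, 10.1, 24.1 and 17.5 CPM in TCM peri-tumor tissue (log2 fold change 1.59, adjusted p = 0.000374). It had 57.1, 45.4, 49.3 and 44.6 CPM in control tumors, against 27.5, 15.5, 14.2 and 12.6 CPM in control peri-tumor tissue (log2 fold change 1.49, adjusted p = 0.000365). Its partner Ifngr2 averaged 34.9 ± 4.66 CPM in TCM tumors and 19.2 ± 2.93 CPM in TCM peri-tumor tissue (log2 fold change 0.87, adjusted p = 8.9e-05), and 44.9 ± 3.85 CPM in control tumors and 17.4 ± 1.64 CPM in control peri-tumor tissue (log2 fold change 1.36, adjusted p = 7.57e-07). Both chains of the interferon gamma receptor thus separated the tissues in both treatments.

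Ifnlr1, the lambda-specific receptor chain, had 2.92, 1.12, 1.15 and 3.35 CPM in TCM tumors, against 0, 0.0675, 0.227 and 0.256 CPM in TCM peri-tumor tissue. It had 3.23, 4.36, 4.24 and 3.40 CPM in control tumors, against 0, 0.423, 0 and 0.140 CPM in control peri-tumor tissue. The peri-tumor groups held 8 and 9 counts in TCM and control mice, against 131 and 237 in the tumors, and the log2 fold changes of 3.89 and 4.65 rest on them (adjusted p = 0.000718 and 7.08e-05). The value in control mice was 6.17 without control peri-tumor 2. Il10rb, the chain that Ifnlr1 shares with interleukin receptors, rose by log2 fold changes of 0.66 in TCM and 0.52 in control mice (adjusted p = 0.0157 and 0.037). The call of Il10rb in control mice was lost under 9 of 17 alternatives, and that in TCM mice under 2 of 16. In control mice these included the mouse as a block (adjusted p = 0.0743) and the fit without control tumor 4 (adjusted p = 0.158). Without both libraries of control mouse 4 the adjusted p was 0.268. Ifnar1 and Ifnar2, the type I receptor, were not called in either treatment by edgeR with TMM factors and all 16 libraries. Ifnar1 was called higher in control tumors by DESeq2 and limma-voom (log2 fold change 0.41 and 0.46, adjusted p = 0.0403 and 0.0304). Some edgeR alternatives called it there too, among them the fit of only the groups compared (adjusted p = 0.0399). No receptor gene was called between TCM and control by edgeR (1 in each tissue at an unadjusted p under 0.05; 0 by DESeq2 and 1 in each tissue by limma-voom).

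**Figure D5:**
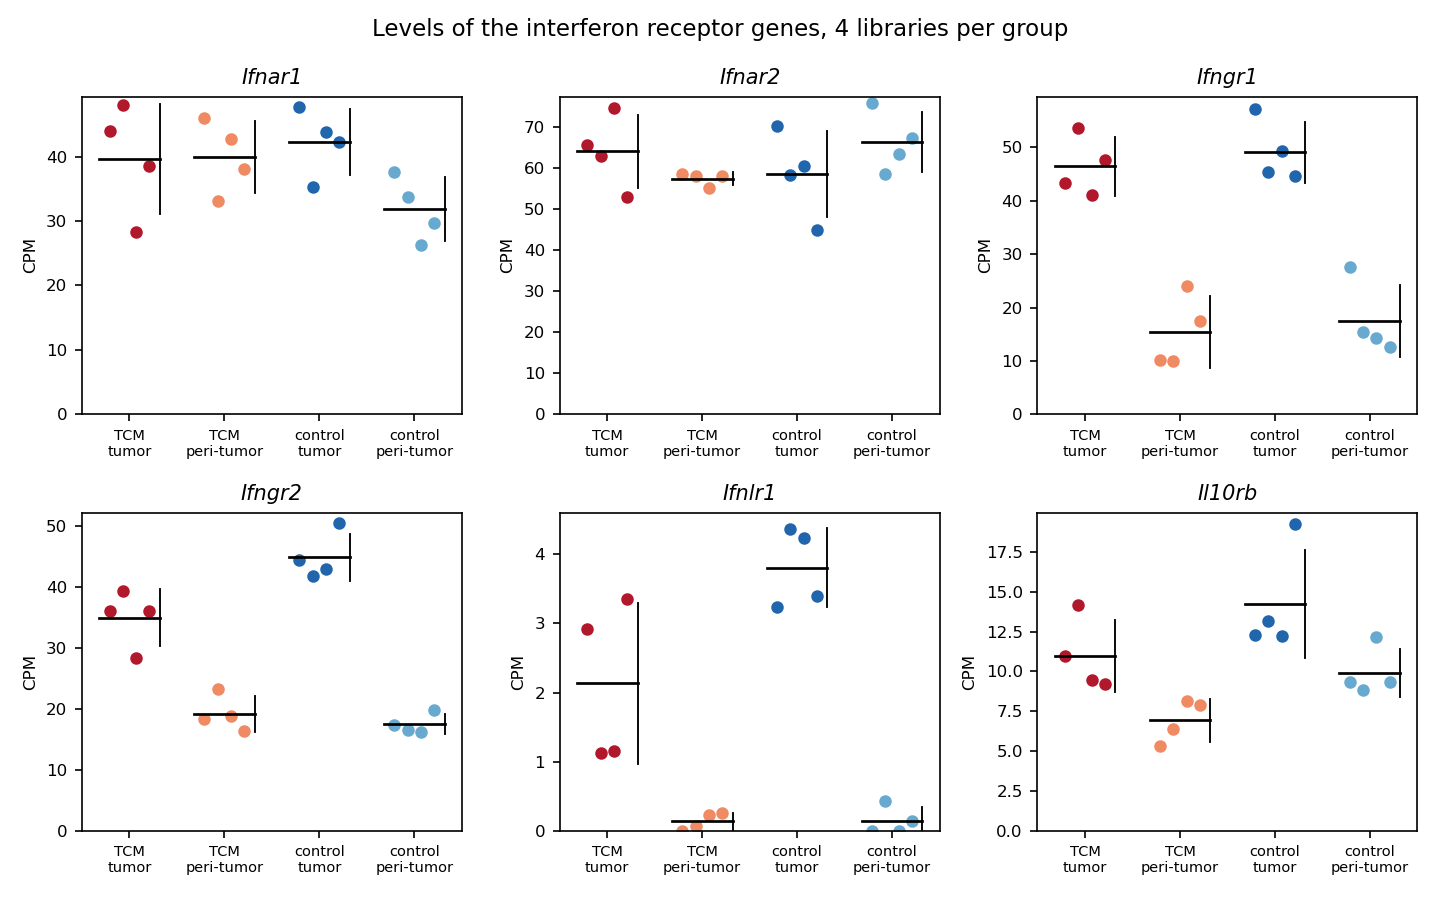
CPM of the 6 interferon receptor genes in the 4 groups; points are libraries, horizontal lines are means and vertical lines 1 SD (n = 4). Ifngr1, Ifngr2 and Ifnlr1 are higher in every tumor than in every peri-tumor library of the same treatment, and Ifnar2 overlaps between tissues.

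Of 8 genes of the JAK-STAT pathway and its inhibitors, 3 were higher in TCM tumors (Jak1, Tyk2 and Pias1) and 4 in control tumors (the same 3 and Jak2), and 0 were lower. Over all genes 17.3% were higher and 15.6% lower in TCM tumors, and 22.0% and 21.2% in control tumors. Jak1, the kinase shared by all interferon receptors, averaged 167 ± 13.1 CPM in TCM tumors and 130 ± 11.6 CPM in TCM peri-tumor tissue, and 188 ± 2.34 CPM in control tumors and 147 ± 13.5 CPM in control peri-tumor tissue (log2 fold change 0.36 in both). The call of Tyk2 in control mice was lost under 10 of 17 alternatives, among them the mouse as a block (adjusted p = 0.0772). With the mouse as a block 2 further genes were called. Socs1, the inhibitor that interferons induce, was higher in tumors of both treatments (log2 fold change 1.11, adjusted p = 0.0267, in TCM and 1.13, adjusted p = 0.0193, in control mice). Socs3 was higher in TCM tumors (1.10, adjusted p = 0.00966) and lower in control tumors (-0.76, adjusted p = 0.0266). The difference between these 2 tumor effects of Socs3 was not called by edgeR with all 16 libraries. It was called by limma-voom (adjusted p = 0.046) and by edgeR without TCM peri-tumor 4 (adjusted p = 0.0238).

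Socs3, a feedback inhibitor that cytokines of the interleukin-6 family induce, was the 1 gene of this list called between treatments. It had 2.98, 2.23, 4.08 and 11.8 CPM in TCM peri-tumor tissue, against 25.4, 32.9, 27.8 and 17.6 CPM in control peri-tumor tissue. The groups did not overlap, and TCM peri-tumor 4 and control peri-tumor 4 were the nearest pair (log2 fold change -2.29, adjusted p = 0.00459; -3.07 without TCM peri-tumor 4). In tumors it was not called, at 10.1 ± 4.93 CPM in TCM and 15.3 ± 3.84 CPM in control mice. Socs1, Ptpn2, Ptpn6 and Pias1 were not called between treatments.

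Further interferon-induced genes, not among the 47, were counted for context. Of 48 other type I-like genes 44 were tested, and in peri-tumor tissue 19 were lower and 2 higher in TCM than in control mice (median -0.65), while in tumors 10 were lower and 1 higher (median -0.46). Of all genes 7.35% were lower and 6.71% higher in peri-tumor tissue, and 2.72% and 4.55% in tumors. Ifi27l2a, Ifi211, Uba7, the enzyme that activates Isg15, and Ifi204, a DNA sensor, had the lowest p in peri-tumor tissue, with log2 fold changes of -2.03, -2.04, -1.02 and -1.54. Lgals9, a lectin, was higher in TCM mice in both tissues (log2 fold change 0.78 in peri-tumor tissue and 0.60 in tumors, adjusted p = 0.00356 and 0.0233).

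Of 25 other interferon gamma-like genes 24 were tested, and 6 were lower in TCM than in control peri-tumor tissue and 1 in tumors, with 0 higher in either. The lower genes in peri-tumor tissue included Psmb10, an immunoproteasome subunit, Gbp8 and Gbp5, with log2 fold changes of -1.06, -1.95 and -1.63. Between tissues 9 of the 24 were higher in TCM tumors and 7 in control tumors, and 1 and 3 were lower, where 17.3% and 22.0% of all genes were higher and 15.6% and 21.2% lower. Ubd, a ubiquitin-like protein, rose by log2 fold changes of 3.49 in TCM and 4.23 in control mice (adjusted p = 0.00194 and 0.0003), and Cxcl9, a chemokine for T cells, by 2.39 and 1.88 (adjusted p = 0.00929 and 0.0246).

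Of 20 genes that sense nucleic acid or induce interferon, 4 were lower in TCM than in control peri-tumor tissue (Tmem173, the adaptor STING, Irf8, Irf2 and Adar, an RNA editing enzyme) and 1 in tumors (Adar), with 0 higher. Tmem173 fell by 1.47 and Irf8 by 1.30 on the log2 scale in TCM peri-tumor tissue (adjusted p = 0.00736 and 0.00992). In tumors against peri-tumor tissue 6 of the 20 were higher and 3 lower in TCM mice, and 2 were higher and 3 lower in control mice. Of all genes 17.3% were higher and 15.6% lower in TCM mice, and 22.0% and 21.2% in control mice, so that all but the first of these 4 counts are no larger a share than over all genes. Irf2, Irf3 and Mavs, the adaptor of RIG-I, were lower in tumors of both treatments, Irf2 by 0.69 in TCM and 1.55 in control mice on the log2 scale (adjusted p = 0.0105 and 1.18e-05).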

How the data were processed

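RNA was measured in 16 libraries, made per the labels' protocols with a stranded mRNA kit from total RNA. The authors deposited raw counts per gene and FPKM values per gene and library. For each gene tested, the ratio of FPKM to the gene's share of its library's counts was compared between libraries. Its range was at most 0.0957% of its mean. FPKM levels between genes were not checked, as no gene lengths were used. Builds mm9 and mm10 are named in the submitters' processing notes without a role. Neither aligner nor counter is given in the sources used here. Of 54838 gene IDs, 115 had no symbol.

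The counts were fitted with edgeR 4.0.16 in R 4.3.3 (TMM factors, quasi-likelihood F test) in 1 model of all 16 libraries with 12 residual degrees of freedom. Genes were kept by filterByExpr with a count minimum of 10, leaving 14865, and p-values were Benjamini-Hochberg adjusted over these for each of 5 comparisons. A change was called at an adjusted p under 0.05. CPM are TMM-scaled, and fold changes are log2 with the standard error of the fit. DESeq2 1.42.0, limma-voom with sample weights (limma 3.58.1), other scaling factors, other filters, blocks and left-out libraries were alternatives. The fit was tested on simulated data.

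The tumor and peri-tumor libraries of 1 mouse share an animal code in the labels, and the deviations of such pairs correlated at 0.0433 to 0.235, so the mouse was also fitted as a block. Mice of the 2 treatments share only a number. No 2 libraries of a group agreed within sampling noise (lowest chi-square per degree of freedom 16.3).

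The members and gene lists were chosen with earlier results of these data known, and so was the rule for naming genes: values in every library for up to 6 type I-like and 3 interferon gamma-like members of lowest p per comparison with a mean of at least 1 CPM, for 8 members followed throughout (Irf7, Irf9, Stat2, Isg15, Ifit1, Irf1, Irgm1 and Gbp2) and for the 5 lowest p of the difference in tumor effect. Beyond it, Cxcl9, Irf2, Irf3, Mavs, Gbp6, Gbp3, Igtp, Usp18 and Ifih1 were named after their values were seen. Promoters came from RefSeq, and motifs were searched on both strands. Genes sharing at least 25% of their 50-base words with another gene were treated as uncertain. Some results are not reported here.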

Additional observations from a re-analysis of the deposited data

Results flagged for a closer look

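Within groups of 4, a library was singled out where its gap to the nearest other as a share of the group's range exceeded Dixon's critical value. Of 244 such groups (61 genes) 16 were singled out, 6.56%, where chance gives about 1 in 20. All values are CPM.

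Among members in TCM tumors, Ifit3b was at 5.475 in library 4 (others 2.674 to 3.102), Oas1g at 12.05 in library 3 (others 5.287 to 5.646) and Oas2 at 2.309 in library 1 (others 0.8212 to 0.9926). Mx2 was low at 1.026 in library 4 (others 2.37 to 2.42), and Stat2 was high at 35.42 in library 3 (others 28.14 to 28.85). Ifit3b shares 45.0% of its 50-base words with Ifit3.

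In TCM peri-tumor tissue, Ifit2 was at 6.952 in library 3 (others 4.669 to 4.993), Trim30a at 10.5 in library 3 (others 7.099 to 7.669), Isg15 at 13.23 in library 2 (others 11.11 to 11.37) and Parp9 at 52.82 in library 1 (others 40.13 to 40.93). Dhx58 was low at 14.98 in library 2 (others 16.76 to 17.0), and Tyk2 was low at 19.57 in library 3 (others 28.61 to 29.88).

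In control tumors, Herc6 and Sp100 were low in library 2, at 10.32 (others 15.75 to 16.66) and 8.312 (others 12.11 to 12.54). Il10rb and Ptpn6 were high in library 4, at 19.28 (others 12.21 to 13.16) and 28.24 (others 21.17 to 21.6). In control peri-tumor tissue Il10rb was high in library 3, at 12.15 (others 8.833 to 9.362).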

How the results depend on the processing

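No called member changed sign under any alternative run. Genes called over the whole table in TCM against control peri-tumor tissue numbered 2091, against 3349 with limma-voom, 3434 without both libraries of control mouse 4 and 1101 to 3228 with 1 library left out. For tumors they numbered 1082, against 1805 with DESeq2, 2193 with limma-voom, 687 with no filter, 1877 without control mouse 4 and 404 to 1250 with 1 library left out. For the difference in tumor effect they numbered 165, against 806, 603, 79 and 714 under the same alternatives, 107 with the mouse as a replicate block and 58 to 665 with 1 library left out. Type I-like members called lower were 6 to 15 (TCM against control peri-tumor), 3 to 7 (tumor) and 4 to 7 (control tumor against peri-tumor, with 7 without control tumor 1 or control peri-tumor 4) with 1 library left out. DESeq2 called 1 type I-like member in the difference.

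Interferon gamma-like members called lower in TCM against control peri-tumor tissue were 2 with limma-voom, 1 with the replicate number as a block, 3 without control mouse 4 and 0 to 3 with 1 library left out. In tumors limma-voom, the number block and the fit without control mouse 4 each called 1. In TCM tumors against peri-tumor tissue DESeq2 called 1 higher and left-out fits 0 to 1. The number block shares only a number between treatments. The type I-like median of control tumors against peri-tumor tissue was -0.0433 without control mouse 4 and -0.0146 to 0.25 with 1 library left out, and the interferon gamma-like median in TCM mice -0.29 to 0.32.

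Uncalled values near 0 changed sign, and the cause was not tested. In control tumors against peri-tumor tissue Ptpn6 was -0.0365 with limma-voom and -0.13 without control mouse 4, and Irgm1 -0.0278. In TCM mice Ifnar1 was 0.0098 with upper-quartile factors and 0.0004 with only the groups compared. In TCM against control peri-tumor tissue Ifnlr1 was 0.62 and Socs1 -0.0019 with limma-voom, and Socs1 was -0.0901 without control mouse 4. In tumors Socs1 was -0.0598 and Ptpn6 0.012 with limma-voom, and Socs1 -0.0245 and Ptpn6 0.0876 without control mouse 4. For the difference in tumor effect Jak1 was -0.0015, Tyk2 -0.008 and Socs1 -0.0579 with limma-voom, and Socs1 -0.0198 with the mouse as a replicate block.

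With 1 library left out, values in TCM against control peri-tumor tissue ranged from -0.33 to 0.0438 for Ifit1, -0.47 to 0.13 for Ifngr1, -0.58 to 1.47 for Ifnlr1, -0.15 to 0.46 for Socs1 and -0.0005 to 0.18 for Tyk2. In tumors they ranged from -0.54 to 0.068 for Gbp2, -0.16 to 0.0413 for Ifnar1, -0.13 to 0.0297 for Ifngr1, -0.11 to 0.0625 for Ptpn6, -0.0747 to 0.41 for Socs1 and -0.14 to 0.0223 for Stat2. Between tissues of control mice they ranged from -0.0216 to 0.62 for Gbp2, -0.18 to 0.19 for Irf1, -0.14 to 0.16 for Irgm1 and -0.0114 to 0.21 for Ptpn6. In TCM mice they ranged from -0.103 to 0.12 for Ifnar1, -0.17 to 0.0013 for Irf9 and -0.33 to 0.0431 for Irgm1. For the difference in tumor effect they ranged from -0.21 to 0.39 for Ifngr1, -0.13 to 0.303 for Irf7, -0.33 to 0.0431 for Irgm1, -0.0548 to 0.0808 for Jak1, -0.11 to 0.0017 for Ptpn2, -0.28 to 0.33 for Socs1 and -0.0448 to 0.17 for Tyk2.

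With the mouse as a replicate block, Irf7, Ifi35 and Xaf1 were gained in control mice (adjusted p = 0.00261, 0.0364 and 0.0497), and Irf7, Stat2, Usp18 and Bst2 in TCM mice (adjusted p = 0.00702, 0.0498, 0.0381 and 0.0492), where Ddx58 was lost (adjusted p = 0.0687). The shorter ISRE letters GAAANNGAA occurred in 63.9% of member promoters and 9.76% of all. Depth limits the ligands and Ifnlr1 in peri-tumor tissue.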
